A study of Caenorhabditis elegans with 3 samples.

Results

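The lipase genes described here are 10 genes of Caenorhabditis elegans, a free-living nematode, whose proteins are known or predicted to break down stored or engulfed fat: 6 lipl genes (lipl-1, lipl-2, lipl-3, lipl-4, lipl-5 and lipl-7), the genes fil-1 and fil-2, and the cytosolic lipase genes atgl-1 and hosl-1. They were chosen by symbol, with earlier results of these data known, and each was measured by 1 probe. All 10 had a value on all 3 arrays, out of 15081 genes with a symbol and 19264 genes or unnamed probes measured on all 3. Each array compared RNA of late young adult hermaphrodites, the self-fertile sex, from preparation 1, 2 or 3 (channel 2) with the same wild-type reference RNA of mixed make-up (channel 1). The series holds 1 group of 3 samples, so the only comparison its design gives is adult over reference. The labels do not state the genotype of the adults, their exact age, the stages in the reference, how the animals were fed, or whether the preparations were separate cultures, so the p-values rest on a spread between preparations that may be technical in part.

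In this animal fat is stored mainly as droplets in the intestine, the epidermis and the germline. Cytosolic lipases such as ATGL-1 act on the surface of these droplets, whereas the LIPL proteins resemble the lysosomal acid lipase of mammals and act on fat delivered to lysosomes. When food is withdrawn, the transcription factor HLH-30 is known to turn on lysosomal lipase genes, and MXL-3 is known to hold them down in fed animals. The fil genes were named as fasting-induced lipases.

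The values are log2 ratios of the 2 channels. Their direction is not stated in the labels and was taken as likely adult over reference. With that direction 13 of 15 fixed adult hermaphrodite markers were higher and 0 lower, and 10 of 12 larval markers were lower and 0 higher. Of 8 measured male markers 0 were higher and 2 lower. The marker lists were chosen with earlier results of these data known, so this check of the direction is not independent. Its larval part also takes larvae to be in the reference, whose stages the labels do not state. Were the ratio formed the other way round, "higher" and "lower" would change places throughout. Such ratios compare shares of the RNA, so fewer cells of a type and less RNA per cell cannot be told apart. A difference counts as called where limma's two-sided test of the 3 log2 ratios against 0 gave an adjusted p under 0.05 after Benjamini-Hochberg adjustment over all 19264 features. Across all features 38.4% were called, 19.6% as higher and 18.8% as lower.

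Of the 10 lipase genes 7 were called, 2 higher and 5 lower in the adult RNA, and 3 were not. lipl-5 stood highest, 4.68-fold above the reference, and fil-1 lowest, 11.2-fold below it. Called differences of at least 2-fold were found for 1 gene in the higher direction (lipl-5), against 8.34% of all features, and for 3 in the lower (fil-1, fil-2 and lipl-2), against 8.79%. The median of the 10 mean log2 ratios was −0.64, beside 0.04 over all features. The array medians of the 10 genes were −0.55, −0.74 and −0.76. Log2 ratios kept 1 sign on all 3 arrays in 8 of the 10 genes, against 63.8% of all features.

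**Figure D1:**
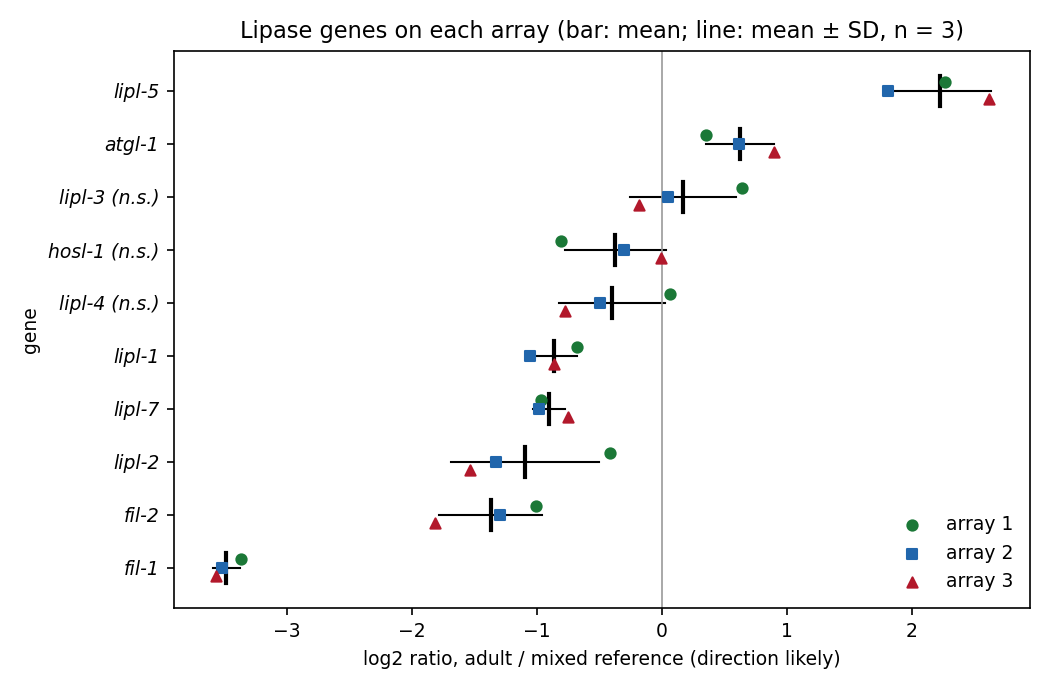
Log2 ratio of adult over reference RNA (x axis) for each of the 10 lipase genes (y axis, ordered by mean), with 1 symbol per array, a vertical bar at the mean and a horizontal line of mean ± SD (n = 3); "n.s." marks genes that were not called. lipl-5 lies at or above 1.81 and fil-1 at or below −3.37 on every array, and the other 8 genes lie between them.

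Among the lysosomal lipase genes, lipl-5 was higher in the adult. LIPL-5 is a lysosomal lipase of the intestine whose gene is known to respond to food withdrawal. Its log2 ratio was 2.26, 1.81 and 2.61 on arrays 1 to 3, which are ratios of 4.80, 3.50 and 6.11. All 3 values lay far from 0 and above every value of the other 9 genes. The mean was 2.23 ± 0.40 (SD, n = 3), with a moderated 95% confidence interval of 1.79 to 2.67 and a limma adjusted p of 0.000122. It ranked 106 from the highest among the 19264 features.

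lipl-1, lipl-2 and lipl-7 were lower. LIPL-1 is a lysosomal lipase that is known to be induced by HLH-30 on fasting. Its log2 ratio was −0.68, −1.06 and −0.87 on arrays 1 to 3, with a mean of −0.87 ± 0.19 (SD, n = 3; limma adjusted p = 0.00340). lipl-7, of the same family, lay at −0.97, −0.99 and −0.75, with a mean of −0.90 ± 0.13 (SD, n = 3; limma adjusted p = 0.00246). These 2 genes, at 1.83-fold and 1.87-fold lower, lay below 0 on every array and varied little, with SDs below the median SD of 0.27 over all features. lipl-2 varied more, with log2 ratios of −0.42, −1.33 and −1.54 on arrays 1 to 3. All 3 values were below 0, and array 1 stood nearest to it. The mean of lipl-2 was −1.09 ± 0.59 (SD, n = 3; limma adjusted p = 0.00600), 2.13-fold below the reference.

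lipl-3 and lipl-4 were not called. LIPL-3, like LIPL-1, is a lysosomal lipase known as a target of HLH-30, and LIPL-4 is known for extending lifespan when its gene is overexpressed in the intestine and for raising the fatty acid signals that the binding protein LBP-8 carries to the nucleus. lipl-3 lay at 0.64, 0.04 and −0.18 on arrays 1 to 3, with a mean of 0.17 ± 0.42 (SD, n = 3; 95% confidence interval −0.28 to 0.61; limma adjusted p = 0.537). Array 1 stood highest, and the sign was not shared. Without array 1 the mean was −0.07. lipl-4 lay at 0.06, −0.49 and −0.78, with a mean of −0.40 ± 0.43 (SD, n = 3; 95% confidence interval −0.85 to 0.04; limma adjusted p = 0.142). Here too array 1 stood highest. Without array 1 the mean of lipl-4 was −0.64 and it was called (limma adjusted p = 0.0177), in a fit that called 43.9% of all features. It was also called with array weights, which gave array 1 the least weight (limma adjusted p = 0.0131; 48.9% of all features called).

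Both fil genes were lower. fil-1 lay at −3.37, −3.52 and −3.57 on arrays 1 to 3, the narrowest range of the 10 genes. The ratios themselves were 0.097, 0.087 and 0.084. They were deposited in steps of 0.001. In log2 terms such a step is larger at so low a ratio, but it is smaller than the differences between these values. The mean of fil-1 was −3.49 ± 0.11 (SD, n = 3), with a 95% confidence interval of −3.84 to −3.13 and a limma adjusted p of 3.11e-05. It ranked 33 from the lowest among the 19264 features. fil-2 lay at −1.01, −1.30 and −1.82, with a mean of −1.37 ± 0.41 (SD, n = 3), 2.59-fold lower, and a limma adjusted p of 0.000918. All 3 arrays placed both genes below 0, and fil-1 lay below fil-2 by 2.36, 2.23 and 1.76 on the log2 scale, so their ranges did not overlap.

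Of the cytosolic lipase genes atgl-1 was higher and hosl-1 was not called. ATGL-1 is the worm's adipose triglyceride lipase, the enzyme that starts the breakdown of droplet fat and is controlled by AMP-activated kinase and protein kinase A. atgl-1 lay at 0.35, 0.62 and 0.89 on arrays 1 to 3, all above 0, with a mean of 0.62 ± 0.27 (SD, n = 3), 1.54-fold higher, and a limma adjusted p of 0.0203. The call was not kept in every fit with 1 array left out. Without array 2 the mean stayed at 0.62, and the limma adjusted p was 0.0671 in a fit that called 30.9% of all features. Without array 3 the mean was 0.49 and the limma adjusted p was 0.181, with 27.8% of all features called. HOSL-1 is the worm's hormone-sensitive lipase, which acts after ATGL in mammals. hosl-1 lay at −0.81, −0.31 and −0.01, with a mean of −0.37 ± 0.41 (SD, n = 3; 95% confidence interval −0.81 to 0.07), and was not called (limma adjusted p = 0.163). On arrays 1 to 3 atgl-1 lay above hosl-1 by 1.16, 0.92 and 0.90 on the log2 scale, and their ranges did not overlap.

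From the highest mean to the lowest the order was lipl-5, atgl-1, lipl-3, hosl-1, lipl-4, lipl-1, lipl-7, lipl-2, fil-2 and fil-1. The comparison is between ratios to the same reference, not between levels of different genes. Of the 9 pairs of neighbours in this order, 2 had ranges that did not overlap: lipl-5 over atgl-1, by a mean of 1.60 ± 0.37 (SD, n = 3), and fil-2 over fil-1, by 2.11 ± 0.32. The other 7 pairs overlapped, and only lipl-4 over lipl-1 kept the same order on all 3 arrays among them. An exact sign-flip test over 3 arrays cannot give a two-sided p below 0.25, so the neighbours were compared by their ranges alone.

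**Figure D2:**
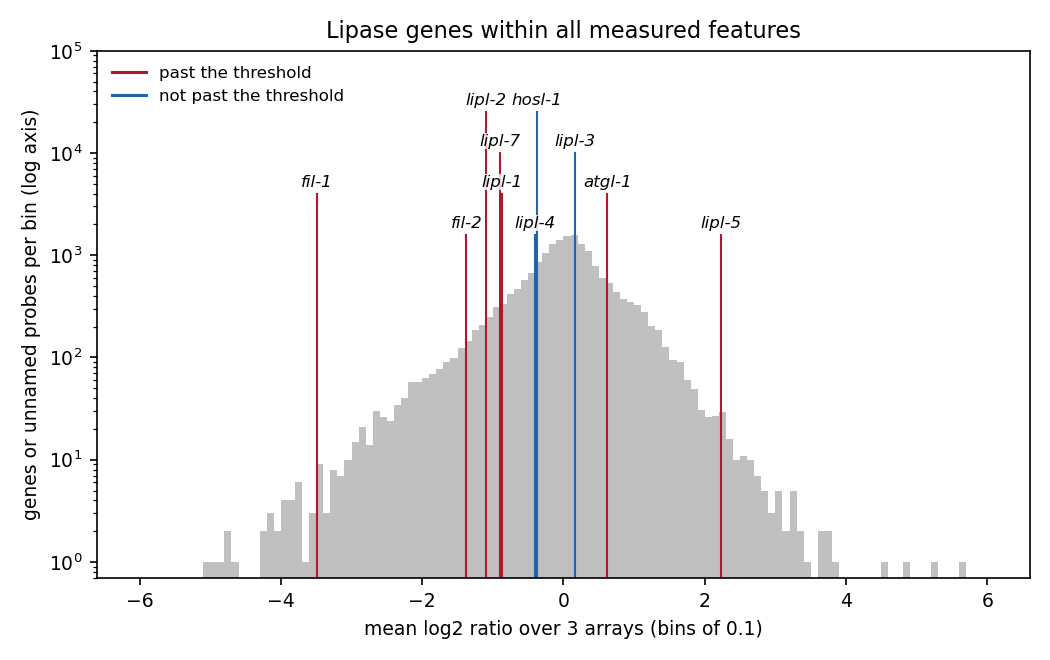
Number of genes or unnamed probes (y axis, log scale) by mean log2 ratio over the 3 arrays (x axis, bins of 0.1), with the mean of each lipase gene as a vertical line, red where called and blue where not; the height of a line only spaces the names. fil-1 at −3.49 and lipl-5 at 2.23 stand in the tails, and lipl-3, lipl-4 and hosl-1 near the centre.

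The 10 genes fell into different layouts over the arrays. The gene's own highest value was on array 1 and its lowest on array 3 for 5 genes (lipl-2, lipl-3, lipl-4, fil-1 and fil-2), a layout found in 20.9% of all features. That share covers features with means on either side of 0, whereas all of these genes but lipl-3 had means below 0. The share among features with means below 0 was not counted. The opposite layout, lowest on array 1 and highest on array 3, was found for atgl-1 and hosl-1, and in 18.3% of all features. The deviations of lipl-3 from its own mean were 0.47, −0.12 and −0.35, and those of lipl-4 were 0.46, −0.09 and −0.37. In 7 of the 10 genes the SD was above the median SD of all features. Over all features array 1 correlated with arrays 2 and 3 at r = 0.763 and 0.773, and arrays 2 and 3 with each other at r = 0.900; regressed on the other arrays' mean, array 1 had a slope of 0.704. The arrays bear different dates in their labels, and each holds 1 preparation, so an effect of the day and one of the preparation cannot be told apart.

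**Figure D3:**
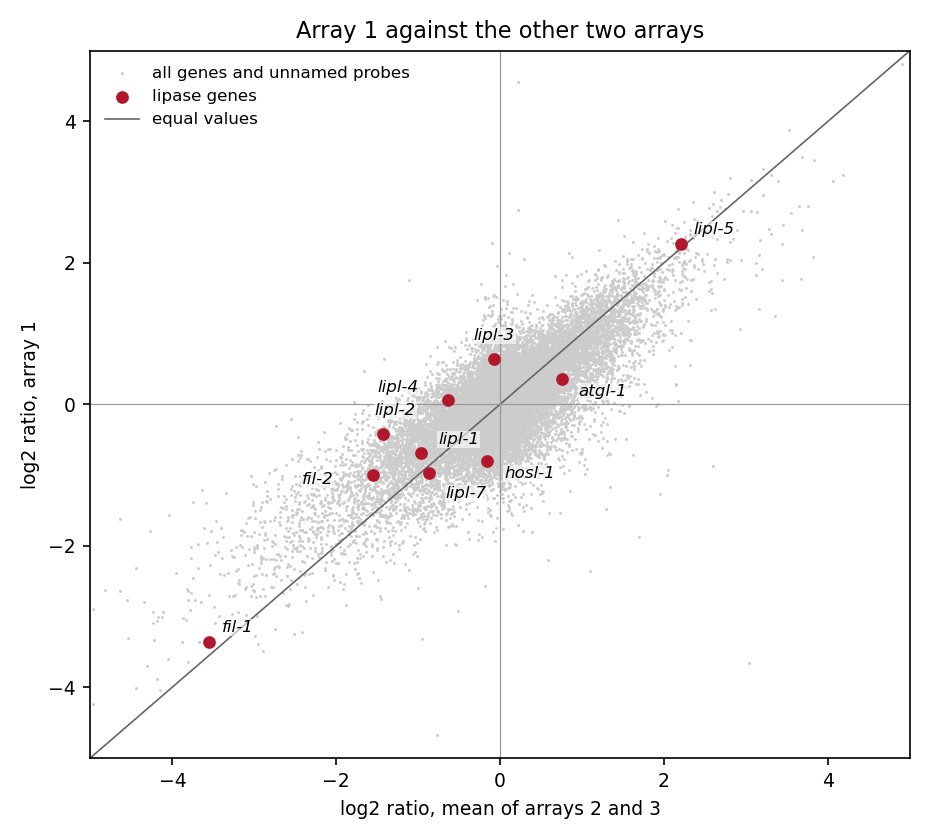
Log2 ratio on array 1 (y axis) against the mean of arrays 2 and 3 (x axis), with each lipase gene in red, all genes and unnamed probes in grey and the line of equal values; 10 features beyond 5 on the log2 scale are not shown. lipl-5 and fil-1 lie close to the line, whereas lipl-2, lipl-3 and lipl-4 lie above it and hosl-1 and atgl-1 below it.

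The regulators of these lipases were read from a fixed list of 28 genes, 27 of them measured, of which 4 were higher and 8 lower. The list's median was −0.15, beside 0.04 over all features, and 44.4% of the measured genes were called, against 38.4% of all features. mxl-3, the repressor of lysosomal lipase genes in fed animals, was lower at −1.80 ± 0.81 (SD, n = 3; limma adjusted p = 0.00140). mxl-3 lay at −0.88, −2.16 and −2.37 on arrays 1 to 3, all below 0 and nearest to it on array 1. hlh-30, the activator of these genes, was lower at −0.53 ± 0.24 (limma adjusted p = 0.0354), a call that was lost with any array left out (limma adjusted p = 0.0670 without array 1, 0.179 without array 2 and 0.0547 without array 3). The Mondo-like factor gene mml-1 was lower at −1.02 ± 0.20 and pqm-1, a zinc finger factor gene that opposes daf-16, at −1.61 ± 0.39. nhr-62, a nuclear receptor gene required for the response to dietary restriction, was lower at −0.74 ± 0.22. nhr-49 and nhr-80, nuclear receptor genes of fat oxidation and desaturation, lay at −0.08 ± 0.07 and 0.41 ± 0.31 and were not called, nor was the FOXO gene daf-16 at 0.15 ± 0.18. lbp-8, the fatty acid carrier that works with LIPL-4, was higher at 1.05 ± 0.15 (limma adjusted p = 0.00125). hsp-4, a chaperone gene of the endoplasmic reticulum that with ire-1 is known to be needed for the fasting induction of fil-1 and fil-2, was higher at 1.32 ± 0.16, and the nuclear receptor gene nhr-66 was higher at 0.50 ± 0.27. nhr-66 was not called without array 2 or array 3 (limma adjusted p = 0.235 and 0.281), and the count of higher genes in this list was then 2.

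Of the other lipase genes on a fixed list of 20, 16 were measured, 3 of them higher and 5 lower (list median 0.01). The 3 that were higher were lips-14 at 2.10 ± 0.30 (SD, n = 3), dagl-2, named as a diacylglycerol lipase, at 0.67 ± 0.17, and lips-12 at 0.47 ± 0.18. lips-9, lips-3 and lips-7 lay lowest at −1.87 ± 0.66, −1.60 ± 0.70 and −1.47 ± 0.11. lips-14 and lips-9 thus stood 4.28-fold above and 3.65-fold below the reference. Without array 2 or array 3 only lips-14 of the 3 higher genes was called, and lips-12 was not called without array 1 either (limma adjusted p = 0.0743).

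Genes of the lipid droplet, where ATGL-1 acts, were 3 higher and 1 lower of 12 measured from a list of 17. The list median was 0.04, and 33.3% of the measured genes were called, against 38.4% of all features. lid-1, whose protein binds ATGL-1 at the droplet, was higher at 0.70 ± 0.34 (SD, n = 3; limma adjusted p = 0.0160) and the perilipin gene plin-1 at 0.64 ± 0.31 (limma adjusted p = 0.0212). Of the catalytic subunit genes of AMP-activated kinase, aak-1 was higher at 0.52 ± 0.22 and aak-2 lower at −0.63 ± 0.21. These calls were not kept in every fit with 1 array left out. lid-1 was not called without array 3 (mean 0.50, limma adjusted p = 0.163), nor plin-1 without array 2 (mean 0.66, limma adjusted p = 0.0505). Neither kinase gene was called without array 2 or array 3. In those fits the means were 0.40 and 0.61 for aak-1 and −0.59 and −0.55 for aak-2. Without array 1 the lower count was 3, and without array 2 or array 3 it was 0.

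The lysosome list, which holds the compartment of the LIPL enzymes, had 40 of 48 genes measured, 12 higher and 10 lower. Its median was 0.03, and 55.0% of the measured genes were called, against 38.4% of all features. The cathepsin A-like gene ctsa-1.2, the cathepsin L gene cpl-1 and the mucolipin channel gene cup-5 lay highest among the called genes, at 2.12 ± 0.20 (SD, n = 3), 1.47 ± 0.36 and 1.28 ± 0.15. The hexosaminidase gene hex-1, the sulfatase gene sul-2 and the palmitoyl-protein thioesterase gene ppt-1 lay lowest at −2.12 ± 0.13, −1.41 ± 0.13 and −1.33 ± 0.85. lmp-1, which encodes a lysosomal membrane protein used as a marker of the organelle, lay at −1.13, −0.18 and 0.21 on arrays 1 to 3 and was not called (mean −0.37 ± 0.69; limma adjusted p = 0.286). Without array 3 the higher count was 7.

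Of the genes of fat oxidation and the fasting response, 24 of 28 were measured, 9 of them higher and 6 lower. The list median was 0.07, and 62.5% of the measured genes were called, against 38.4% of all features. The acyl-CoA synthetase gene acs-2, a fasting-induced target of NHR-49, lay lowest at −4.61 ± 1.18 (SD, n = 3), below fil-1, followed by the glyoxylate cycle gene icl-1 at −2.34 ± 0.54 and acs-11 at −1.79 ± 0.46. At the other end stood acdh-1, an acyl-CoA dehydrogenase gene, at 3.27 ± 0.63, then the enoyl-CoA hydratase gene ech-6 at 1.78 ± 0.42 and the thiolase gene kat-1 at 1.58 ± 0.22. The higher count was 5 without array 2 and 4 without array 3, and the lower count was 4 to 7 with 1 array left out.

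On the side of fat synthesis 20 of 23 genes were measured, 6 of them higher and 4 lower (list median 0.31). The acetyl-CoA carboxylase gene pod-2 was higher at 1.36 ± 0.38 (SD, n = 3), and the acyltransferase genes acl-6 and acl-1 at 0.94 ± 0.18 and 0.77 ± 0.70. The desaturase genes fat-3, fat-2 and fat-4 lay lowest at −3.90 ± 0.26, −1.68 ± 0.36 and −1.28 ± 0.14. acl-1 was not called without array 3 (limma adjusted p = 0.209), and without array 1 the higher count was 3. Some lists share genes, so their counts are not independent: aak-2, lbp-8, sbp-1, dgat-2 and mboa-2 each stand in 2 of the fat metabolism lists, asp-1 and cpr-6 in the lysosome and intestine lists, and vit-2, vit-5 and vit-6 in the intestine and adult lists.

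**Figure D4:**
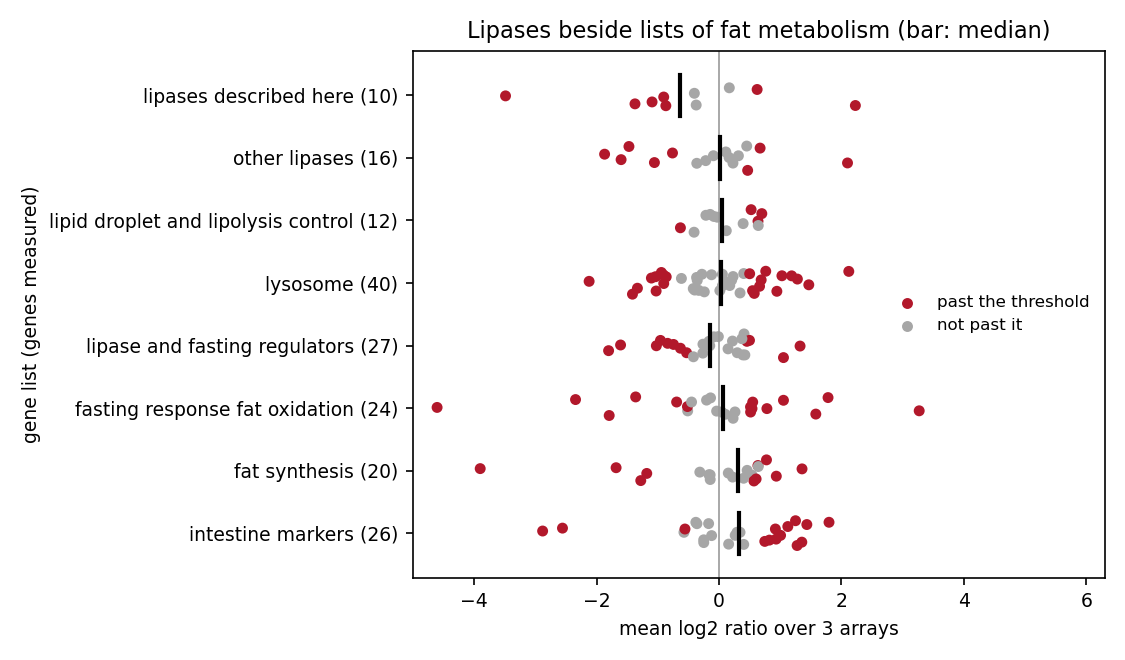
Mean log2 ratio over the 3 arrays (x axis) of every measured gene in the lipase, fat metabolism, lysosome, regulator and intestine lists (y axis, number measured in brackets), red where called and grey where not, with a black bar at the list's median; vertical scatter within a list only separates the points. The lipases described here have a median of −0.64, and the medians of the other lists drawn here run from −0.15 to 0.32. The lipase means run from −3.49 to 2.23, and the lipases and lists were chosen with earlier results of these data known. The adult, larval and male marker lists are not drawn.

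Several of these lipases are known from the intestine, so its markers were set beside them. Among 26 measured intestine markers 11 lay higher and 3 lower past the threshold, which is 53.8% called against 38.4% of all features. Their median was 0.32, with 0.62, 0.25 and 0.31 on arrays 1 to 3. The part of intestinal RNA in the lipase ratios was not tested.

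Likeness over the arrays was measured as the Euclidean distance between the 3 log2 ratios of 2 genes. The genes with a symbol nearest to lipl-5 were clec-56 at a distance of 0.23, enu-3.6 at 0.26 and egc-2 at 0.32, with means of 2.13 ± 0.33 (SD, n = 3), 2.18 ± 0.23 and 2.34 ± 0.23. Those nearest to fil-1 were F26A3.4 at 0.20, the neuropeptide-like gene nlp-80 at 0.47 and dod-3 at 0.48, with means of −3.57 ± 0.18, −3.35 ± 0.33 and −3.29 ± 0.30. With 3 arrays this likeness rests mostly on the mean ratio. The lipl genes form a family of related sequences, so signal may be shared between probes, and single values carry that uncertainty.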

How the data were processed

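The deposited table holds 1 log2 ratio for each of 20000 probes on each of 3 arrays. The unit of these deposited log2 values was settled from the values: for 99.98% of them 2 raised to the value is a whole multiple of 0.001 (within 0.01 of a step). Background correction, normalization and filtering by the authors are not given in the sources used here. Medians by array were 0.05, 0.01 and 0.02. No spot intensities were used, so faint spots cannot be told from bright ones, and the number of arrays limits the precision.

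Symbols came from the platform annotation, updated through a RefSeq table of WBcel235 by gene identifier or, failing that, by transcript accession. That table also gave the order of genes along the chromosome for the neighbours described below. Of the probes 15655 had 1 symbol, 198 had several and 4147 were unlisted or had no symbol. Probes of a symbol were averaged on each array, and probes without 1 symbol were kept under their number. An intercept-only model was fitted to the unaltered log2 ratios by lmFit and eBayes of limma 3.58.1 (R 4.3.3). The fit was tested on simulated data with independent noise for each gene and array. That simulation held no array effect, so it does not cover the differences between these arrays. Each ratio holds the technical variation of the reference channel on its array, but variation between reference preparations does not enter. With no swapped array a gene's channel bias and its difference cannot be told apart.

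The members and lists were chosen with earlier results of these data known. Genes were named by rule: all members, the 3 highest and 3 lowest called genes of each list, 7 genes of the regulator list and lmp-1, and the 3 nearest profiles of the highest and lowest member. No sequence was printed because none was held for these genes. The scaling alternative used limma's median absolute value scaling for log ratios.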

Additional observations from a re-analysis of the deposited data

How the results depend on the processing

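The calls rest on 3 arrays and on limma's sharing of the spread between genes. By a one-sample test without moderation 0 of the 10 lipase genes, 0 genes of every list and 0 of all features passed after adjustment (0 higher, 0 lower; smallest adjusted p over all features 0.0682, with 6188 features at an unadjusted p under 0.05, while limma had 8985). Under it 5 lipase genes had an unadjusted p under 0.05. The means under this test are those of the main fit by construction, so they could not change and do not offset the lost calls. For the genes called by limma they are 2.23 for lipl-5 and 0.62 for atgl-1 on the higher side. On the lower side they are −0.87 for lipl-1, −0.90 for lipl-7, −1.09 for lipl-2, −1.37 for fil-2 and −3.49 for fil-1. That test has only 3 values per gene.

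Centring the arrays and scaling them to a common spread kept every lipase gene's direction and its side of the threshold. Robust eBayes, allowing 1 missing array, testing each probe alone and using only genes with a symbol kept each gene's side too. In those fits the lipase means are the same by construction, so their direction could not change. With array weights (0.387 for array 1, 1.62 for array 2 and 1.60 for array 3) lipl-4 was called at −0.56 (limma adjusted p = 0.0131); the other 9 kept their side. Array weights gave 7 higher genes of the regulator list and 2 lower droplet genes, against 4 and 1. Centring gave 2 higher genes of the regulator list.

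With 1 array left out the means ran from 2.03 to 2.44 for lipl-5, 0.49 to 0.76 for atgl-1, −0.07 to 0.34 for lipl-3, −0.64 to −0.22 for lipl-4, −0.56 to −0.16 for hosl-1, −0.96 to −0.77 for lipl-1, −0.98 to −0.86 for lipl-7, −1.43 to −0.87 for lipl-2, −1.56 to −1.15 for fil-2 and −3.55 to −3.44 for fil-1. The mean of lipl-3 turned to −0.069 without array 1. The lipase counts were 1 to 2 higher and 5 to 6 lower, and over all features 2676 to 4274 higher and 2676 to 4184 lower. The list counts were 1 to 3 higher for other lipases, 2 to 3 higher and 0 to 3 lower for the droplet list, 7 to 11 higher for the lysosome, 2 to 3 higher for the regulators, 4 to 9 higher for fat oxidation and 3 to 6 higher for fat synthesis. The cause of these shifts was not tested. No paired analysis was possible because the series holds 1 group.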

Other observations

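The protein-coding genes on either side of each lipase gene, taken by order along the chromosome in the RefSeq table, were looked up after the lipase values had been seen. No lipase gene was next to another of the 10. Of 20 neighbours 17 were measured and 9 were called by limma, beside 38.4% of all features, with 4 on the same side of 0 as the lipase gene and 5 on the opposite side. Beside fil-2, K12B6.4 was lower at −1.26 ± 0.54 (SD, n = 3), and beside lipl-2, F46B6.9 was lower at −0.91 ± 0.27. The neighbours of lipl-5, ZK6.8 and ZK6.6, lay at 0.50 ± 0.34 and 0.30 ± 0.19 and were not called. fil-1 stands between T01C3.3, which was higher at 1.15 ± 0.26, and irld-14 at 0.24 ± 0.14, which was not called. lipl-7 stands between ech-8, an enoyl-CoA hydratase gene that was lower at −0.52 ± 0.27, and the transketolase gene tkt-1, which was higher at 1.69 ± 0.22. These genes were named after their values were seen.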
